A study of Rattus norvegicus with 8 samples.

Results

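The 8 adrenoceptor genes described here, Adra1a, Adra1b, Adra1d, Adra2a, Adra2b, Adra2c, Adrb1 and Adrb3, encode receptors for noradrenaline and adrenaline, and the alpha2 subtypes are the main targets of yohimbine. They were found by gene name among the 30367 probes, for 19308 named genes, of a 1-colour Agilent rat array, and each was represented by 1 probe. The arrays measured hippocampal messenger RNA of male Sprague Dawley rats aged 3 months. Of these, 4 animals had received Y+I, yohimbine with the tricyclic antidepressant imipramine, for 7 days and 4 had received vehicle for 7 days, and the labels place the RNA at 2 h in both groups. Each animal had its own array, so n = 4 for each group mean. The comparison shows how adrenoceptor mRNA differed under the combination of drugs. The drugs were given together in every Y+I animal, so the values cannot be assigned to either drug.

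Adrenoceptors are G protein-coupled receptors of 3 classes. The alpha1 receptors couple to Gq and raise intracellular calcium, the alpha2 receptors couple to Gi/o, lower cyclic AMP and act in part as autoreceptors that curb noradrenaline release, and the beta receptors couple to Gs and raise cyclic AMP. Yohimbine blocks alpha2 receptors, and imipramine blocks reuptake of noradrenaline and serotonin, so both drugs raise the noradrenaline that these receptors meet. In rodent brain, alpha1B mRNA is prominent in the thalamus and alpha1D mRNA in the hippocampus.

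The probes are 60 bases long, and parts of 5 are shown because each value was read through such a sequence. The longest run of bases shared by any of the 28 pairs of adrenoceptor probes was 7. The probes were compared only with each other and not with the transcripts of other subtypes, so binding to another subtype was not tested. For Adra1b, the gene that passed the test, and Adra2a, the leading target of yohimbine, the first 30 bases are given. For Adra1d, capitals mark the pentamer ATTTA. That probe held it in 2 places on the printed strand, as did 0.375% of all probes at that number of copies or more. The Adra2c and Adrb1 probes are whole, and the capitals mark a stop codon that ends a reading frame open through the rest of the probe.
Adra1b: caatgctggcactttgataggatcggaaaa
Adra1d: ATTTAtcattttgaaacctATTTAttggta
Adra2a: cttggtggcttttgagaccttttgttacca
Adra2c: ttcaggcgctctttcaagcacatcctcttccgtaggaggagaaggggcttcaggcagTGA
Adrb1: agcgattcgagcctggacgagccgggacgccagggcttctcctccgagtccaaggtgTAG
In the files, the probes lie on rat build rn4 at chr10:28889094-28889153 (Adra1b), chr3:119280059-119280118 (Adra1d), chr14:81108144-81108203 (Adra2c) and chr1:263026996-263027055 (Adrb1), and the Adra2a probe is listed as unmapped. The probes of the other 3 genes lie at chr15:46263114-46263173 (Adra1a), chr3:114869275-114869334 (Adra2b) and chr16:69166311-69166370 (Adrb3). The sources used here do not say whether a probe lies in coding sequence or in an untranslated region.

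Values below are normalised log2 signals, in which the log2 processed signal of the scanner was centred on each array's 75th percentile. A value of 0 is the signal of that percentile, and levels of different probes cannot be set against each other. Between 64.4% and 74.8% of spots were well above background on the Y+I arrays, against 76.4% to 79.7% on the vehicle arrays. The Y+I group was the more variable, with a median SD of a gene between animals of 0.239 log2 units, against 0.134 in vehicle. The Y+I arrays filled row 2 of a single slide and the vehicle arrays filled row 1, and a difference between rows therefore cannot be told apart from one between treatments.

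Of the 8 genes, 7 were well above background on all 8 arrays. The exception was Adra2a, which was well above background on all 4 vehicle arrays and on none of the 4 Y+I arrays. All 8 genes entered the test, which required a probe to be well above background on every array of 1 group, and Adra2a entered through vehicle alone. No spot of any of them was saturated.

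Adra1b, the alpha1B receptor, was the only adrenoceptor gene that passed limma's test across 18803 features, and it was lower in Y+I. Of all features 2.33% were called, 0.739% as higher and 1.6% as lower. In 2 of the 8 genes, Adra1b and Adra2a, the groups did not overlap, both lower in Y+I, as was so for 11.7% of all features, 6.65% lower and 5.04% higher in Y+I. Because Adra2a entered the test through vehicle alone, the group where it was brighter, its separation is given as a value only. The median log2 fold change over the 8 genes was 0.02, beside -0.02 over all features, with 5 genes above 0 and 3 below, where 54.1% of all features were below 0. The plot of signals by animal shows the separation for Adra1b and the overlap or near-overlap for the others.

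**Figure D1:**
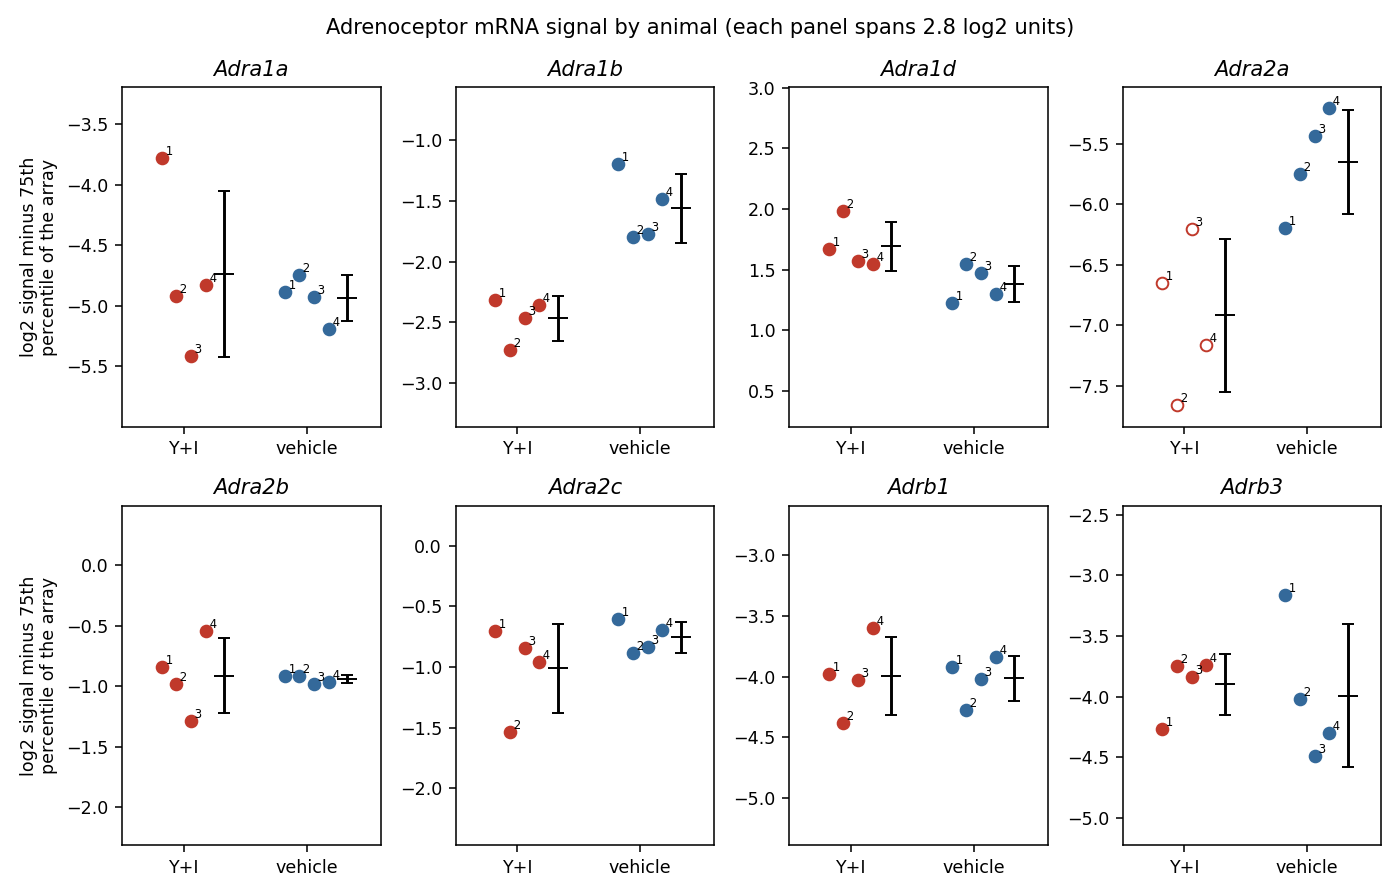
Normalised log2 signal of each adrenoceptor gene in the 4 Y+I (red) and 4 vehicle (blue) animals, numbered by animal; open circles are arrays on which the probe was not well above background, and bars give mean and SD. All 4 Y+I animals lie below all 4 vehicle animals for Adra1b, while the 4 open circles of Adra2a mark Y+I arrays near background.

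Adra1b had normalised log2 signals of -2.32, -2.73, -2.47 and -2.35 in Y+I animals 1 to 4. The vehicle animals had -1.19, -1.79, -1.78 and -1.49. Every Y+I animal was thus below every vehicle animal, with Y+I animal 2 the lowest and vehicle animal 1 the highest. The means were -2.47 ± 0.19 in Y+I and -1.56 ± 0.28 in vehicle (SD, n = 4 each), and Adra1b fell 1.87-fold (log2 fold change -0.91 ± 0.16 SE, 95% interval -1.27 to -0.54, limma adjusted p = 0.0275). The 2 spots of the probe differed by a median SD of 0.03 log2 units on an array, which measures printing and scanning within an array and not the spread between animals.

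The call for Adra1b was not stable to the loss of animals, although its direction was. It passed in 3 of 8 fits that left out 1 animal. It did not pass without Y+I animal 2 (adjusted p = 0.0573), Y+I animal 3 (0.051), Y+I animal 4 (0.0517), vehicle animal 1 (0.0538) or vehicle animal 4 (0.0967), nor without Y+I animals 2 and 3 together (0.126), where the log2 fold change was -0.78. The log2 fold change stayed between -0.98 and -0.78 in the fits that left out 1 animal. It was -0.69 after normexp background correction (adjusted p = 0.0314) and -0.89 in the deposited value table (adjusted p = 0.0308). The plot of Adra1b by setting shows all the drawn values below 0.

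**Figure D2:**
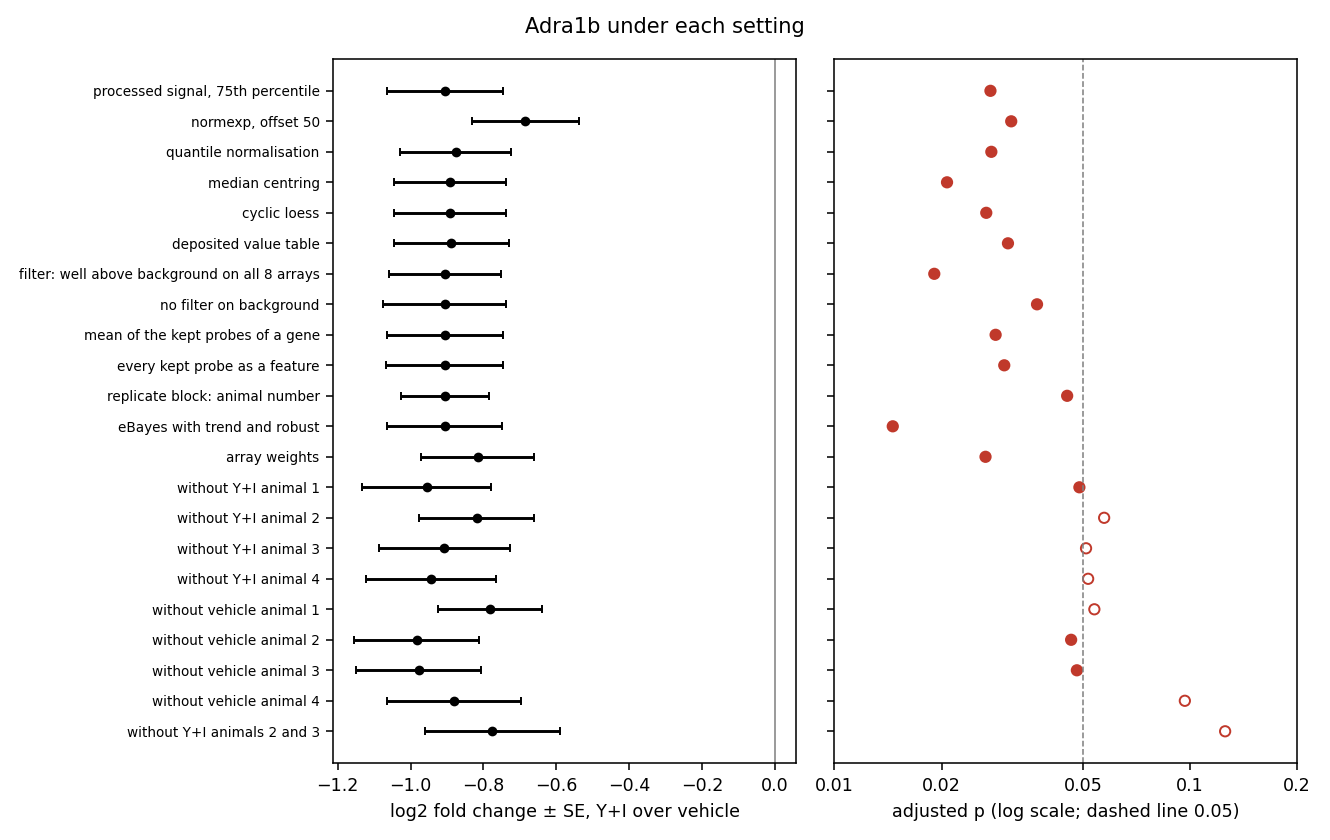
Log2 fold change of Adra1b, Y+I over vehicle, with its SE (left) and its limma adjusted p (right, log scale, filled where under 0.05) under the processed-signal setting and alternative settings of normalisation, filter, probe summary, model or animals. The fits with the lowest or highest spot of a probe and the threshold of 0.1 are not drawn. All fold changes lie below 0, and the open circles, all for fits without 1 or more animals, reach an adjusted p of 0.126.

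Markers of tissue next to the hippocampus differed between the groups in the same samples. Over 10 marker lists 103 genes were measured, of which 1 was called higher and 7 lower, 7.77% in all beside 2.33% of all features. Of 14 thalamus and habenula markers listed, 9 were measured, 7 of them below 0, and their summed signal was 40.6 to 47.5 times the 75th percentile in Y+I, against 55.6 to 59.7 in vehicle. A single member, Cplx1, made up 94.5% to 95.7% of that sum in Y+I and 92.3% to 94.6% in vehicle, and did not pass (limma adjusted p = 0.0873). The other 8 members summed to 2.03 to 2.36 in Y+I and 3.23 to 4.56 in vehicle. Slc17a6, the vesicular glutamate transporter of thalamic neurons, fell 2.25-fold (limma adjusted p = 0.0291), with -0.96, -0.85, -0.96 and -0.17 in Y+I animals and 0.79, 0.36, 0.09 and 0.50 in vehicle animals. Slc17a6 passed in 2 of 8 fits that left out an animal (adjusted p up to 0.0967, without vehicle animal 4). The other 8 measured members did not pass, among them Tcf7l2 (log2 fold change 0.09) and Zic1 (0.38), the members above 0. No tested value was given by Gbx2, Synpo2, Chrnb3, Gpr151 and Tac2.

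Striatal markers summed to 4.75 to 5.99 in Y+I and 6.47 to 6.96 in vehicle, with 9 of 10 below 0 and 2, Drd2 and Rxrg, called lower. Pde10a was the member above 0 (log2 fold change 0.21, limma adjusted p = 0.51). It made up 48.4% to 64.2% of the striatal sum in Y+I and 36.9% to 41.6% in vehicle. The rest of the striatal list summed to 2.08 to 2.94 in Y+I and 3.85 to 4.15 in vehicle. Markers of meningeal and fibroblast cells summed to 3.37 to 4.15 in Y+I and 4.76 to 5.94 in vehicle, with 11 of 12 below 0 and 3, Col1a1, Slc6a13 and Igfbp2, called lower. Endothelial and mural markers, relevant because alpha1 receptors also serve vessels, summed to 9.64 to 10.46 in Y+I and 11.5 to 13.1 in vehicle, with 10 of 13 below 0 and 1, Kdr, called lower. Markers of hippocampal pyramidal and granule neurons ran the other way, with sums of 70.6 to 81.8 in Y+I and 40.2 to 62.1 in vehicle over 12 measured members, none of them called. These signs stand beside 54.1% of all features below 0, and they depended on the background correction: after normexp, 6 of 9 thalamic, 6 of 10 striatal, 8 of 12 meningeal and 7 of 13 endothelial and mural markers were below 0. The median log2 fold change was then -0.16 for thalamic markers (-0.42 from the processed signal), -0.23 for striatal (-0.63), -0.32 for meningeal (-0.59) and -0.05 for endothelial and mural markers (-0.17). For hippocampal neuron markers it was 0.35 (0.34 from the processed signal). The sums of astrocyte, oligodendrocyte, microglia, choroid plexus and monoamine neuron markers overlapped between groups. Among their members 1 passed, the oligodendrocyte gene Aspa, which rose 1.65-fold (limma adjusted p = 0.0289). After normexp correction Aspa, Slc17a6, Drd2, Rxrg, Col1a1, Slc6a13, Igfbp2 and Kdr still passed, with the same signs (limma adjusted p 0.00196 to 0.047). Cplx1, Calb2 and Penk, lower in Y+I, and Wfs1 and Dbh, higher in Y+I, then passed as well (0.0281 to 0.0499). Drd1, Slc13a4 and Slc6a4, of the striatal, meningeal and monoamine lists, were well above background on no Y+I array. The part of these shifts in the Adra1b result was not tested. In whole tissue, fewer cells of a type and less RNA per cell cannot be told apart.

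**Figure D3:**
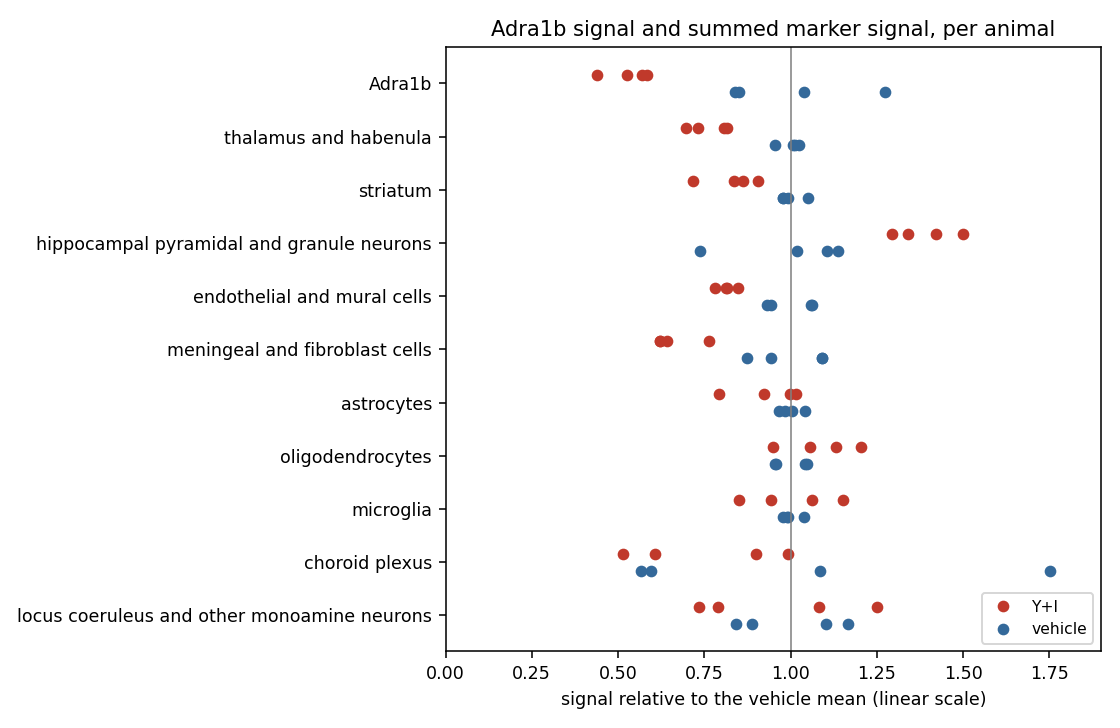
Adra1b signal and the summed signal of each marker list per animal, relative to the vehicle mean on a linear scale, for Y+I (red) and vehicle (blue). The groups separate for Adra1b and for the summed thalamic (nearly all Cplx1), striatal, vascular and meningeal signals, all lower in Y+I. The summed signal of hippocampal neuron markers also separates and is higher in Y+I.

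Adra1d, the alpha1D receptor, had a log2 fold change of the opposite sign and did not pass. Its signals were 1.67, 1.98, 1.58 and 1.54 in Y+I animals 1 to 4, and 1.23, 1.54, 1.47 and 1.30 in vehicle animals. Y+I animal 4 and vehicle animal 2 had all but the same value, and the other 3 Y+I animals exceeded every vehicle animal. The means were 1.69 ± 0.20 in Y+I and 1.38 ± 0.15 in vehicle (SD, n = 4 each), a log2 fold change of 0.31 with a 95% interval of 0.02 to 0.60 (limma adjusted p = 0.285, unadjusted p = 0.0396). Unadjusted p under 0.05 was reached by 3 of the 8 genes, Adra1b, Adra1d and Adra2a, and by 15.6% of all features. Among these, Adra2a entered the test through vehicle alone, so its p is given as a value only. The Adra1d probe was printed in 10 spots, and all 40 of its spots in each group were well above background. Its log2 fold change was positive under all 24 alternatives, at 0.21 to 0.36. Some of these, such as another filter or threshold, cannot change the fold change of a single-probe gene.

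Adra1a, the alpha1A receptor, had signals of -3.78, -4.92, -5.41 and -4.83 in Y+I animals and -4.89, -4.74, -4.92 and -5.19 in vehicle animals. The groups overlapped, with means of -4.74 ± 0.69 in Y+I and -4.94 ± 0.19 in vehicle (SD, n = 4 each), and the gene did not pass (log2 fold change 0.20, 95% interval -0.48 to 0.89, limma adjusted p = 0.808). The high value of Y+I animal 1 came from a single spot. Its 2 spots of this probe read 369.6 and 50.6 scanner units, a 7.30-fold difference on the same array, and neither carried an outlier mark. Without Y+I animal 1 the log2 fold change was -0.12, and with the lowest spot of each probe it was -0.21, so its sign rested on that spot.

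The alpha2 receptors, where yohimbine binds, held no gene that passed. Adra2a encodes the alpha2A subtype, the main presynaptic autoreceptor of noradrenergic neurons. Its signals were -6.65, -7.66, -6.21 and -7.16 in Y+I animals, none well above background, and -6.20, -5.75, -5.44 and -5.21 in vehicle animals, all well above background. The groups did not overlap, but Y+I animal 3 and vehicle animal 1 lay within 0.01 log2 units of each other.

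In scanner units the Adra2a probe averaged 15.1 in Y+I and 42.0 in vehicle, and both spots of Y+I animal 2 held a surrogate value that Feature Extraction sets for a signal too low to measure. The means were -6.92 ± 0.63 in Y+I and -5.65 ± 0.43 in vehicle (SD, n = 4 each). The log2 fold change from the processed signal was -1.27, with a 95% interval of -2.00 to -0.54, and did not pass (limma adjusted p = 0.0934). After normexp correction with an offset of 50 it was 0.00023 (adjusted p = 0.999), so the size of the difference depended on this step. The correction and its offset were not tested apart. Because the gene entered the test through vehicle alone, the group where it was brighter, an adjusted p of 0.0492 without Y+I animal 3 and of 0.0434 with no filter on background are given as values only.

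Adra2b, the alpha2B subtype, had signals of -0.84, -0.99, -1.28 and -0.54 in Y+I animals and -0.92, -0.91, -0.98 and -0.96 in vehicle animals. The vehicle animals lay within a narrow band and the Y+I animals on both sides of it. The means were -0.91 ± 0.31 in Y+I and -0.94 ± 0.03 in vehicle (SD, n = 4 each), with a log2 fold change of 0.03 and a 95% interval of -0.31 to 0.37 (limma adjusted p = 0.949). A spread larger in Y+I than in vehicle was seen in 6 of the 8 adrenoceptor genes and in 77.8% of all features.

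Adra2c, the alpha2C subtype, had signals of -0.70, -1.54, -0.84 and -0.96 in Y+I animals and -0.60, -0.88, -0.83 and -0.69 in vehicle animals. Y+I animals 2 and 4 lay below every vehicle animal, and the other Y+I animals lay within the vehicle range. The means were -1.01 ± 0.37 in Y+I and -0.75 ± 0.13 in vehicle (SD, n = 4 each), and the log2 fold change of -0.26 did not pass (95% interval -0.66 to 0.15, limma adjusted p = 0.545). It was below 0 under all 24 alternatives, some of which cannot change a single-probe fold change, but without Y+I animal 2 it shrank to -0.08. That animal was the lowest of the Y+I group for Adra1b, Adra2a, Adra2c and Adrb1.

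Neither beta receptor gene passed. Adrb1, the beta1 receptor, which couples noradrenaline to cyclic AMP in forebrain neurons, had signals of -3.98, -4.38, -4.03 and -3.60 in Y+I animals and -3.92, -4.27, -4.02 and -3.84 in vehicle animals. The ranges overlapped throughout, with means of -4.00 ± 0.32 in Y+I and -4.01 ± 0.19 in vehicle (SD, n = 4 each) and a log2 fold change of 0.02 (95% interval -0.37 to 0.40, limma adjusted p = 0.977). Adrb3, the beta3 receptor best known from adipose tissue, had -4.27, -3.74, -3.84 and -3.74 in Y+I animals and -3.16, -4.02, -4.49 and -4.30 in vehicle animals. Vehicle animal 1 was the highest of all 8, and the other 3 vehicle animals were below 3 of the Y+I animals. The means were -3.90 ± 0.25 in Y+I and -3.99 ± 0.59 in vehicle (SD, n = 4 each), with a log2 fold change of 0.09 (95% interval -0.53 to 0.72, limma adjusted p = 0.91). The intervals of Adrb1 and Adrb3 do not show equal levels in the groups. The plot of fold changes gives all 8 genes side by side.

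**Figure D4:**
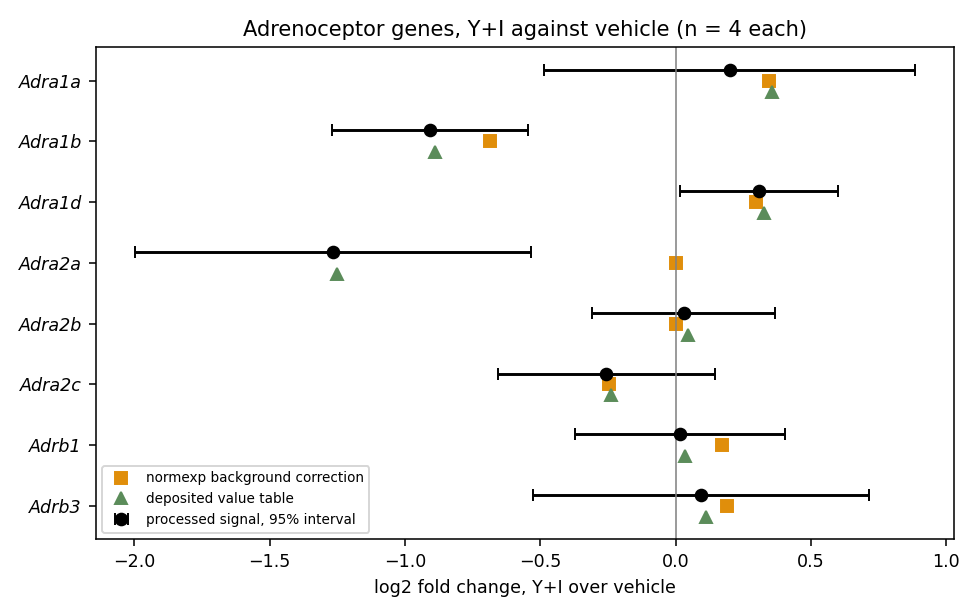
Log2 fold change of each adrenoceptor gene, Y+I over vehicle, from the processed signal with its 95% interval (black), after normexp background correction (orange) and in the deposited value table (green). The 3 values lie close together for Adra1d, Adra2b and Adra2c. For Adra1b the normexp value is -0.69 against -0.91 from the processed signal, and for Adra2a it is 0.00023 against -1.27.

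Genes that supply noradrenaline or carry adrenoceptor signals were taken from 6 lists of 61 genes, of which 59 were measured. Of these, 2 rose, 1 fell and 56 did not pass, and the median log2 fold change was 0.02. The share called was 5.08%, beside 2.33% of all features. All 8 genes of noradrenaline synthesis, storage, uptake and breakdown were measured and none passed (median 0.02). The smallest p in this list was that of Dbh, the enzyme that makes noradrenaline from dopamine, with a log2 fold change of 0.51 ± 0.18 (SE, limma adjusted p = 0.209). Slc6a2, the noradrenaline transporter that imipramine inhibits, had 0.04 ± 0.17 (adjusted p = 0.941).

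In the Gq pathway of alpha1 receptors none of 11 genes passed, although 8 were above 0 and the median was 0.31. Prkca, a protein kinase C activated downstream of Gq, had the smallest p, with a log2 fold change of 0.61 ± 0.14 (SE, limma adjusted p = 0.0647). Of the 8 genes of the Gi/o pathway, Kcnj6 rose and 7 did not pass (median -0.06). Kcnj6 encodes a GIRK potassium channel subunit that Gi/o-coupled receptors open. Its signals were -0.40, -0.62, -0.24 and -0.56 in Y+I animals and -0.98, -1.02, -1.24 and -1.07 in vehicle animals, without overlap, a 1.54-fold rise (adjusted p = 0.03).

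Of the 16 genes of the Gs and cyclic AMP pathway, Adcy9 rose, Adcy8 fell and 14 did not pass (median -0.02). Both encode adenylyl cyclases, which make cyclic AMP. Adcy8, a calcium-stimulated form, had -2.28, -2.16, -2.54 and -2.43 in Y+I animals and -0.78, -1.46, -1.64 and -1.52 in vehicle animals, and fell 2.01-fold (limma adjusted p = 0.034). Adcy9 had -0.61, -0.67, -0.72 and -0.70 in Y+I animals and -1.51, -1.64, -1.06 and -1.24 in vehicle animals, and rose 1.61-fold (adjusted p = 0.0379). The groups of both genes did not overlap, but Adcy8 and Adcy9 each passed in 1 of 8 fits that left out an animal (adjusted p up to 0.087 and 0.103), and Kcnj6 in 3 (up to 0.0996). The highest of these p-values came without vehicle animal 4 for Adcy8 and Kcnj6 and without vehicle animal 1 for Adcy9.

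Receptor kinases and arrestins, which silence activated adrenoceptors, held no gene that passed among 7 (median 0.03). Grk6 had the smallest p, with a log2 fold change of -0.48 ± 0.14 (SE, limma adjusted p = 0.123). Among 9 measured scaffold genes none passed (median 0.07), and Akap12, which anchors protein kinase A at beta receptors, had -0.84 ± 0.27 (adjusted p = 0.159). After normexp correction Dbh, Prkca and Grk6 did pass (adjusted p = 0.0377, 0.0316 and 0.0348), with the same signs.

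**Figure D5:**
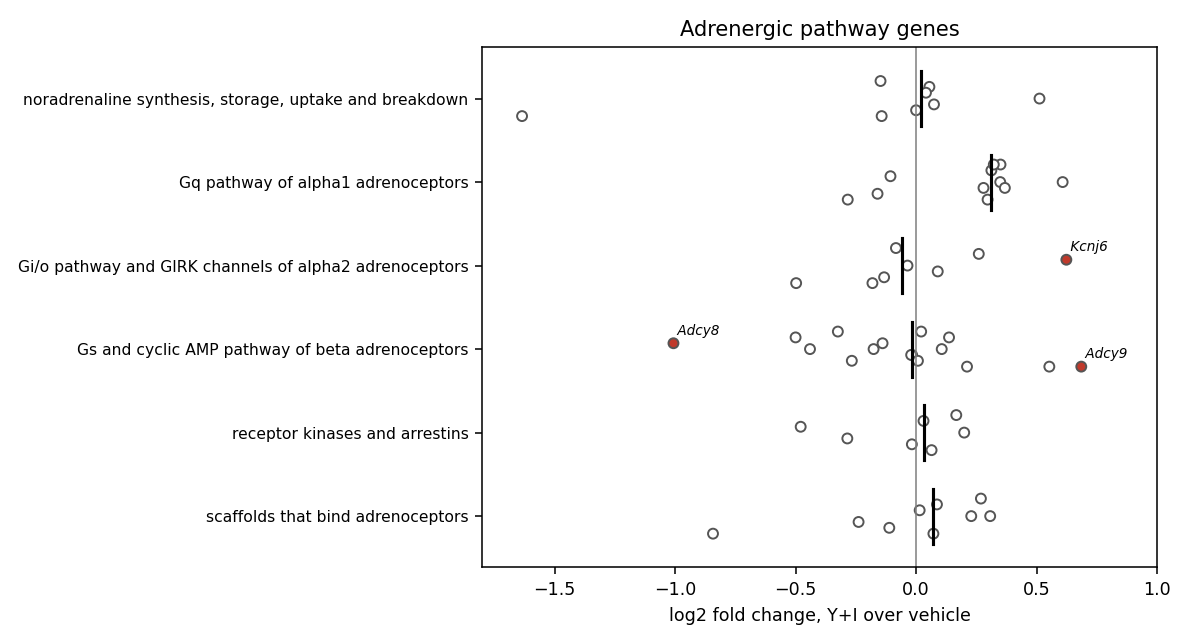
Log2 fold change, Y+I over vehicle, of the 59 measured genes in 6 adrenergic lists, filled where the limma adjusted p was under 0.05, with a bar at each list's median. Kcnj6 and Adcy9 lie above 0 and Adcy8 below, and the Gq list has the highest median, 0.31.

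The genes whose signal ran most like that of an adrenoceptor gene over the 8 arrays were ranked by Pearson's r among 11052 named features well above background on all arrays. For Adra1b they were Gpr26, an orphan G protein-coupled receptor of the brain (r = 0.985), Wdsub1 (0.984) and Tmem192 (0.983). Taken within groups, as deviations from the group means, these were 0.924, 0.932 and 0.8998. Gpr26 also fell, with a log2 fold change of -0.71 (limma adjusted p = 0.0404), but passed in none of 8 fits that left out an animal (adjusted p 0.057 to 0.114, the highest without vehicle animal 4), while Wdsub1 had -0.37 and Tmem192 -0.29, neither past the test.

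Adra1d ran closest to Dpm1 (r = 0.971), Fxr1 (0.961) and Gna14 (0.959), a Gq-family alpha subunit. Adra2c ran closest to Jakmip1 (0.99), Cad (0.977) and Prss53 (0.971), and Adra2b to Or5h26 (0.982), Rnf224 (0.982) and Tuba3b (0.978). For Adra1a the closest were Or6al1 (0.945), Pglyrp1 (0.945) and Cables1 (0.926), for Adrb1 Begain (0.956) and Scd4 (0.937), and for Adrb3 Dixdc1 (0.976), Itgb4 (0.96) and Extl2 (0.956). These correlations describe 8 arrays that share a slide and, between groups, a treatment, and they were picked as the highest of many.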

How the data were processed

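Hippocampal RNA of 4 Y+I and 4 vehicle rats was labelled with Cy3, per the labels' protocols, and titles gave groups and animal numbers. Per the file headers, Agilent Feature Extraction 10.5.1.1 wrote the mean, background and processed intensity of each spot, the last after background subtraction and detrending. The log2 values of the deposited table have no stated scale. Their 75th percentile lay near 0.01 and their medians at -3.51 to -3.35, and with slopes of about 0.997 on the scanner's log2 signals they served as an alternative only.

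Spots with outlier marks, 4 of them for Adra1d, were dropped and the remaining spots of a probe averaged after centring. A probe counted as well above background where at least 50% of its spots did. Kept probes (21370) reached that on all 4 arrays of either group, with 3 or more values in each, and the brightest probe stood for its gene. RefSeq's table for assembly GRCr8 updated the names: 18004 probes by accession, 2320 by symbol and 626 by synonym, while 1999 carry the array's own name and 7418 are unnamed. Limma 3.58.1 (lmFit, eBayes; R 4.3.3) tested Y+I against vehicle, two-sided, with Benjamini-Hochberg adjustment over all 18803 features and a threshold of 0.05. The number of arrays limits the precision.

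The genes, lists, rule for named genes and alternatives (background correction, normalisation, filter, probe summary, model, animals left out) were chosen with earlier results of these data known. The rule named every adrenoceptor gene, the list members past the threshold or else the smallest p, marker genes that passed, and the 3 features most like each adrenoceptor gene well above background on all arrays. Of these features, 1 is not reported here. Slc6a2, Cplx1, Calb2, Penk, Wfs1, Drd1, Slc13a4, Slc6a4, Pde10a, Tcf7l2 and Zic1 were added after their values were seen.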

Additional observations from a re-analysis of the deposited data

How the results depend on the processing

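Over 24 alternatives, Adra1b stayed below 0 in all and passed in 18, and in no alternative did Adra1a, Adra1d, Adra2b, Adra2c, Adrb1 or Adrb3 pass. Some alternatives, such as another filter or threshold, can change the call of a single-probe gene but not its fold change. The count of adrenoceptor genes called, 1 in the setting reported, was 2 with no filter on background and at a threshold of 0.1, where Adra2a, near background in Y+I, joined Adra1b, 0 to 1 when an animal was left out, and 0 without Y+I animals 2 and 3. The count of all features called, 439, was 3887 with no filter, 775 at a threshold of 0.1, 121 to 355 when an animal was left out and 164 without Y+I animals 2 and 3. With the replicate block for animal number it was 144, and Adra1b kept its call (adjusted p = 0.0451). Of the called features, 31.7% were higher in Y+I, against 66.4% after normexp correction, 86.5% with no filter and 43.3% with a filter on all 8 arrays, and the median log2 fold change of all features was 0.09 after normexp correction, against -0.02.

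Signs of uncalled genes turned as follows. After normexp correction Adra2a was at 0.00023 and Adra2b at -6.02e-05. When an animal was left out, the log2 fold change ran from -0.12 to 0.43 for Adra1a, -0.094 to 0.15 for Adra2b, -0.12 to 0.15 for Adrb1 and -0.072 to 0.37 for Adrb3. Without Y+I animals 2 and 3 Adrb3 was at -0.012. With the lowest spot of each probe, chosen after seeing the data, Adra1a was at -0.21 and Adrb1 at -0.0062. Deviations of same-numbered animals from their group means correlated at -0.11 to 0.05, and those of other pairs at -0.22 to 0.18. These values do not settle whether the animal number pairs the arrays. In both groups animals 1 to 4 lay in slide columns 1 to 4. The causes were not tested. For Adra2a, near background in Y+I, the log2 fold change was -1.50 to -1.02 under the alternatives other than normexp that gave it a value.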

Other observations

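The difference between the Adra1b and Adra1d signals within an array does not depend on how the array is centred. It was -3.99, -4.72, -4.04 and -3.90 log2 units in Y+I animals 1 to 4, and -2.42, -3.34, -3.25 and -2.78 in vehicle animals, with means of -4.16 ± 0.37 in Y+I and -2.95 ± 0.43 in vehicle (SD, n = 4 each). The groups did not overlap. This pair was chosen after its values were seen, so no test is given.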
